A study of Homo sapiens with 18 samples.

Results

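The 9 genes described here are NFE2L2, which encodes the transcription factor NRF2, and 8 of its textbook targets in antioxidant defence: HMOX1, NQO1, GCLC, GCLM, TXNRD1, SRXN1, SLC7A11 and FTH1. They were chosen by name, and every probe whose symbol is one of these names was taken, which gave 11 probes for 9 genes out of 21111 probes for 19289 symbols. NQO1 and GCLM have 2 probes each. The genes were measured by TempO-Seq, in which pairs of DNA oligos that anneal side by side on a transcript are ligated, amplified and counted, in BT549, Hs578T and SUM149PT, which are established human triple-negative breast cancer cell lines. The labels name no engineered change, and cells were lysed 72 h after transfection with 50 nM siRNA, either a SMARTpool against ASAP1 (siASAP1), an Arf GTPase-activating protein, or the negative control (siCtrl), a pool of many kinase siRNAs that by the study's methods leaves no single kinase gene significantly changed. Each of the 6 groups held 3 libraries, called biological replicates in the study's methods; the labels give only their numbers, and p-values measure the spread between these libraries.

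NRF2 is held at a low level in resting cells by KEAP1, which presents it for ubiquitination and degradation. Oxidants and electrophiles modify cysteines of KEAP1, NRF2 then accumulates, and it binds antioxidant response elements in DNA together with a small MAF protein (MAFF, MAFG or MAFK). Since NRF2 is controlled mainly through protein stability, the mRNA of NFE2L2 need not follow the activity of the protein, and no protein was measured here.

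The sequences below show this element in the members' promoters, as the site through which the family is grouped. RefSeq promoter windows of 300 bases (GRCh38.p14), from 250 bases before to 50 bases after a start site, matched 6 of the 9 genes with 8 windows. HMOX1, SLC7A11 and FTH1 were not among them. The core TGACNNNGC, searched on both strands, was found in windows of 2 of the 6 genes, GCLM and TXNRD1, and in 13.3% of all 35116 promoter windows of this length. Each site is printed with 10 bases on either side and the core in capitals; none of the 4 stretches contains the AP-1 motif TGANTCA.
GCLM, chr1:93909446-93909474, plus strand (the gene lies on the minus strand), core 34 bases before the start at its far end: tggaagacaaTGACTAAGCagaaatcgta
TXNRD1, chr12:104215670-104215698, plus strand, 99 bases before the start: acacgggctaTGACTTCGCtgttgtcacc
TXNRD1, chr12:104215761-104215789, minus strand, 8 bases before the start: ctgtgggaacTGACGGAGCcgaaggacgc
TXNRD1, chr12:104286920-104286948, minus strand, 102 bases before another start of the gene: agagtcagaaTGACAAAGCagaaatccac
The windows of GCLC, NFE2L2, NQO1 and SRXN1 did not hold these letters. A match describes the letters of the window and is not evidence of binding.

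All values below are read counts scaled by the size factor of the library (normalized counts). Each probe reads 1 short stretch of a transcript with its own efficiency, so levels were compared between samples and not between genes. The libraries held 4633629 to 12488575 reads. Sums of marker probes separated the lines, and they rest mostly on the probes with the highest counts. Not every marker followed them. CDH2, a mesenchymal marker, averaged 1733 in SUM149PT with siCtrl, against 325 in BT549 and 4010 in Hs578T. The summed epithelial markers were 30000 to 57140 in SUM149PT, 57.4 to 330 in BT549 and 135 to 495 in Hs578T, the summed mesenchymal markers were 58570 to 111600 in BT549, 153400 to 267200 in Hs578T and 5875 to 12100 in SUM149PT, and blood and endothelial markers summed to at most 103 in any library.

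The targeted gene was examined first. ASAP1 read 367, 730 and 783 in BT549 with siASAP1 against 1107, 966 and 944 with siCtrl, and 782, 825 and 1261 in Hs578T against 1641, 1414 and 2697. The groups did not overlap in these 2 lines, where siASAP1 libraries averaged 62.3% and 49.9% of siCtrl. The log2 fold change (log2 FC) of ASAP1 was −0.75 in BT549 (SE 0.39, adjusted p = 0.647, limma) and −0.98 in Hs578T (SE 0.32, adjusted p = 0.915, limma). It was −1.16 in SUM149PT (SE 0.77, adjusted p = 0.657, limma) and −0.96 over the 3 lines (SE 0.31, adjusted p = 0.127, limma). By the limits used below for the members, ASAP1 was called in none of these fits. In SUM149PT, ASAP1 read 282, 468 and 184 with siASAP1 and 1087, 189 and 1314 with siCtrl. The library labelled SUM149PT siCtrl replicate 2 thus had an ASAP1 level within the range of the siASAP1 libraries, against its label. It stood apart from the other control libraries of its line in ASAP1 and in several members below. It also held 7739706 reads, while the other SUM149PT libraries held 4633629 to 4891177. For PRDX4, AKR1C1 and DDIT3 it lay with the other controls, outside the siASAP1 range. These genes are named below because they differ between the labelled groups, so their values cannot decide about the label. Whether the label of this library is right was not tested. The library was kept, because the labels define the groups, and values without it are given beside the SUM149PT results that rest on it.

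**Figure D1:**
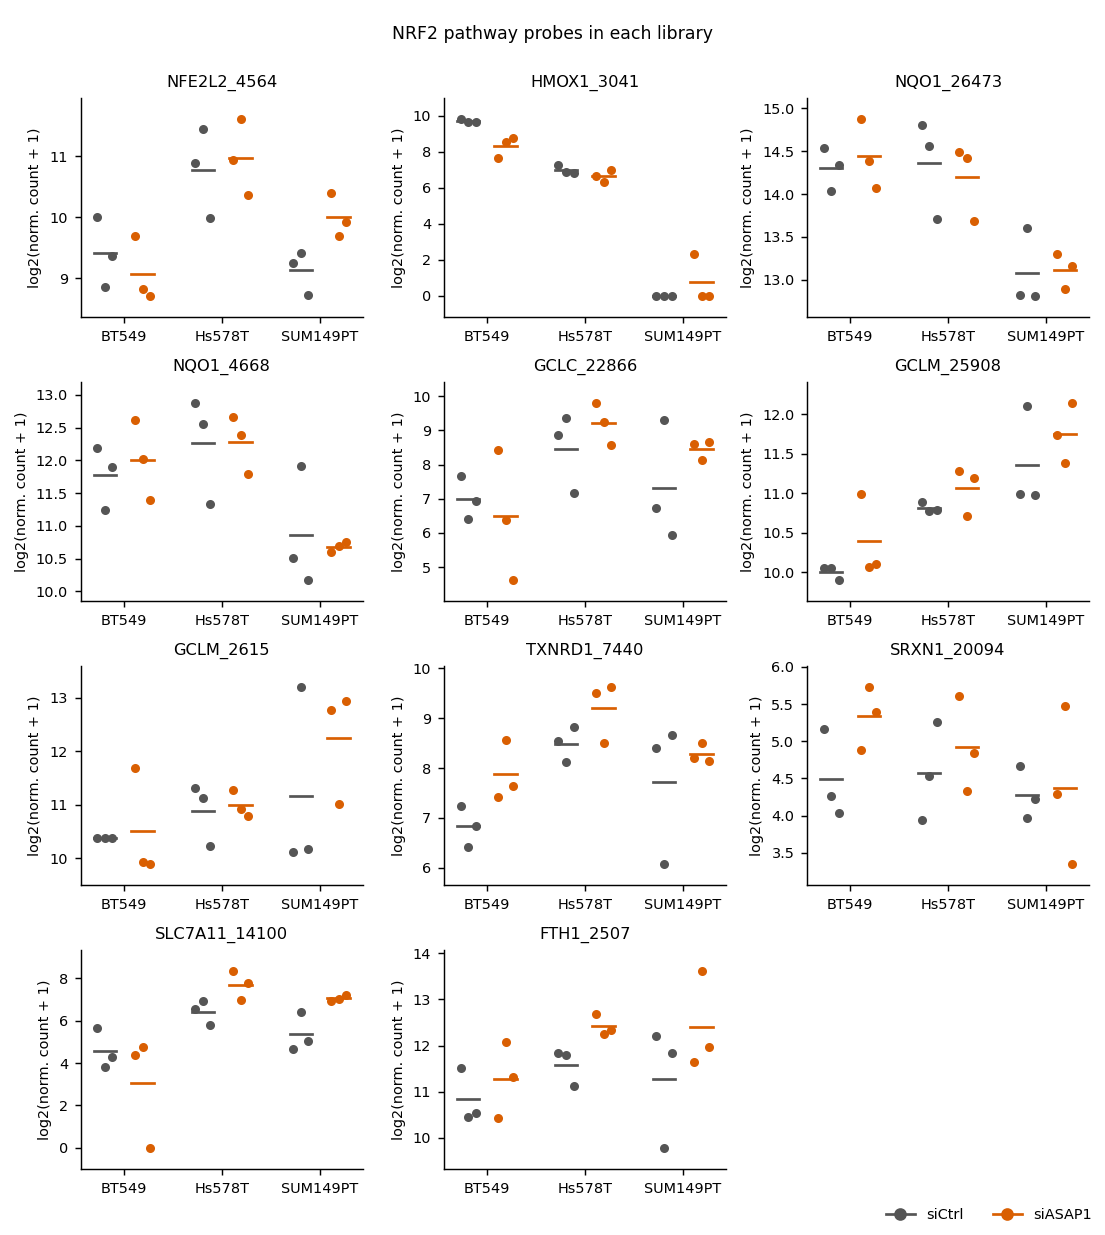
Each panel shows one probe; the vertical axis is log2 of the normalized count plus 1 (scales differ between panels), points are single libraries and bars are means of the 3 libraries of a group, siCtrl in grey and siASAP1 in orange. HMOX1 was high in BT549 and at or near 0 in SUM149PT, and one grey point of SUM149PT lies far from the other two for GCLC, GCLM, TXNRD1 and FTH1.

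HMOX1, the inducible heme oxygenase that degrades heme to biliverdin, carbon monoxide and iron, was the member with the largest fitted difference among the control groups. It read 897, 800 and 812 in the BT549 siCtrl libraries, 154, 116 and 113 in Hs578T, and 0 in all 3 of SUM149PT. The lines did not overlap. In the limma fit of the 9 siCtrl libraries, HMOX1 was lower in Hs578T than in BT549 (log2 FC −2.71, SE 0.45, adjusted p = 0.00237), and this was the 1 member probe of 11 called, where called means an adjusted p under 0.05 with an absolute log2 FC over 1 and 13.8% of all 10255 probes were called. Against SUM149PT, where no read was found, HMOX1 was at least 212-fold higher in BT549 and at least 32.5-fold higher in Hs578T, taking a floor of 3 reads in each SUM149PT library. These limits cover counting error only.

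Under siASAP1, HMOX1 fell in BT549 by the study's unadjusted thresholds. The siASAP1 libraries read 199, 368 and 429, all below the 3 control libraries and on average 39.7% of them. In a lysate of many cells, a lower level in each cell and fewer cells with the transcript cannot be told apart. The limma fit within the line gave a log2 FC of −1.40 (SE 0.40, 95% interval −2.28 to −0.52, adjusted p = 0.492). In Hs578T the siASAP1 libraries read 99.7, 78.1 and 126 and overlapped the controls. In SUM149PT HMOX1 read 3.97, which is 3 reads, in one siASAP1 library and 0 in the other two, and it was under the filter on low values and not tested. Whether the 3 lines differ in the effect on HMOX1 was tested over all 18 libraries and did not pass (adjusted p = 0.819, limma). That test takes in SUM149PT, where HMOX1 read 0 with siCtrl and could not fall, so it cannot decide whether a fall differs between lines.

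The 2 probes called in BT549, HMOX1 lower and TXNRD1 higher, were 2 of 11, where called within a line means p under 0.05 without adjustment and an absolute log2 FC over 1, the thresholds the study used, and 6.97% of all 9666 probes were called (3.28% higher and 3.69% lower). No probe of any kind passed an adjusted p of 0.05 in a single line with limma, although an unadjusted p under 0.05 was found for 754 (BT549), 502 (Hs578T) and 1025 (SUM149PT) of them. HMOX1 was called in BT549 under all 15 alternatives, with a log2 FC from −1.62 to −1.07 when single libraries were left out.

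SLC7A11, the cystine carrier of system xc− that supplies cysteine for glutathione, was the member called in both of the other lines. In SUM149PT it read 120, 131 and 150 with siASAP1 against 24.3, 83.8 and 32.0 with siCtrl, and in Hs578T 322, 126 and 218 against 93.7, 119 and 54.2. Every siASAP1 library was above every siCtrl library in both lines, with means at 286% and 249% of the control. In BT549, where the level was low, it read 19.6, 26.4 and 0 against 48.7, 13.2 and 18.2, and the groups overlapped.

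The log2 FC of SLC7A11 was 1.70 in SUM149PT (SE 0.61, adjusted p = 0.424, limma) and 1.28 in Hs578T (SE 0.45, adjusted p = 0.915, limma). It was 1 of 10 member probes called in SUM149PT, beside 9.56% of all probes (5.27% higher, 4.29% lower), and 1 of 11 in Hs578T, beside 2.78% (1.34% higher, 1.44% lower). In SUM149PT the call was lost without siASAP1 replicate 2 (log2 FC 1.71), siASAP1 replicate 3 (log2 FC 1.61), siCtrl replicate 1 (log2 FC 1.34) or siCtrl replicate 3 (log2 FC 1.53), but not without the library labelled siCtrl replicate 2 (log2 FC 2.21). In Hs578T it was lost without siASAP1 replicate 1 (log2 FC 0.96) and without siCtrl replicate 3 (log2 FC 0.96). The test of a difference between the lines gave an adjusted p of 0.827 (limma) for SLC7A11.

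**Figure D2:**
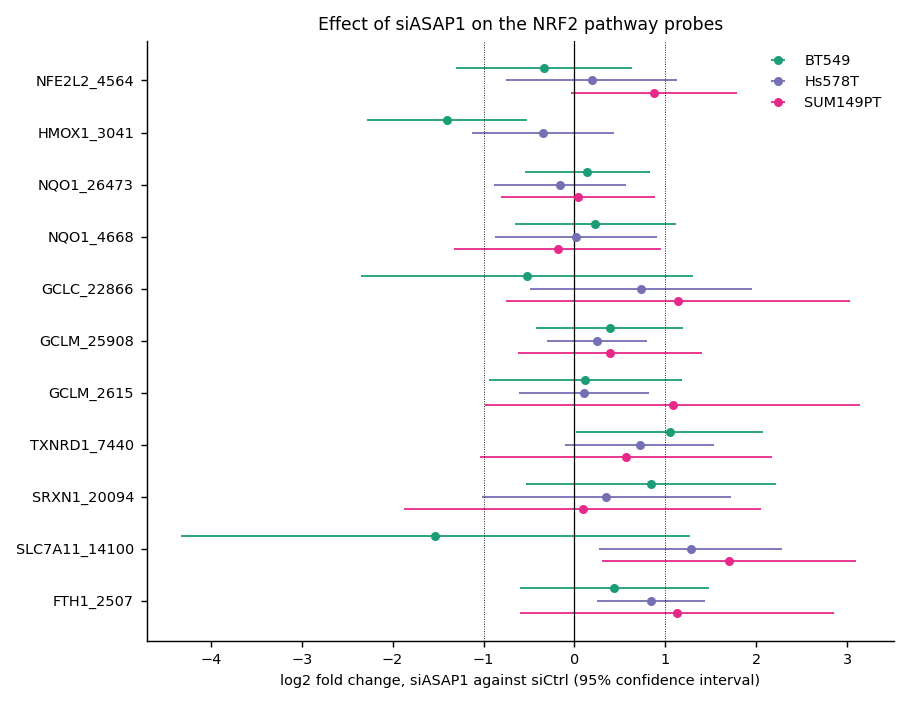
Log2 FC of siASAP1 against siCtrl for each member probe (horizontal axis) in BT549, Hs578T and SUM149PT, with 95% confidence intervals from limma; dotted lines mark a log2 FC of −1 and 1, and HMOX1 was not tested in SUM149PT. The intervals of HMOX1 and TXNRD1 in BT549, of SLC7A11 and FTH1 in Hs578T and of SLC7A11 in SUM149PT do not reach 0, and all others do; the SUM149PT values include the library labelled siCtrl replicate 2.

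TXNRD1, the cytosolic thioredoxin reductase that uses NADPH to keep thioredoxin reduced, read 170, 378 and 198 in BT549 with siASAP1 and 150, 84.3 and 113 with siCtrl. The groups did not overlap, and the mean was 215% of the control (log2 FC 1.05, SE 0.47, adjusted p = 0.638, limma). This value lay close to the limit, and the call was lost without siASAP1 replicate 2 (log2 FC 0.70), siASAP1 replicate 3 (log2 FC 1.16), siCtrl replicate 2 (log2 FC 0.84) or siCtrl replicate 3 (log2 FC 1.05). In Hs578T, TXNRD1 read 730, 361 and 788 against 372, 276 and 452, with an overlap of 1 siASAP1 library. In SUM149PT it read 295, 362 and 280 against 339, 66.5 and 403, where 66.5 is the library labelled siCtrl replicate 2; the log2 FC was 0.57 with that library and −0.25 without it.

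SRXN1, or sulfiredoxin, reactivates peroxiredoxins that have been over-oxidized, and its probe gave few reads. SRXN1 read 28.4, 51.9 and 41.1 in BT549 with siASAP1 against 34.9, 18.2 and 15.4, and between 9.20 and 47.6 in all libraries of Hs578T and SUM149PT. The groups overlapped in every line, and SRXN1 passed no test of siASAP1.

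FTH1, the ferritin heavy chain that oxidizes and stores iron, read 6535, 4898 and 5178 in Hs578T with siASAP1 and 3661, 3538 and 2229 with siCtrl. All siASAP1 libraries lay above the controls, at 176% on average. Its log2 FC of 0.84 (SE 0.26, adjusted p = 0.915, limma) was under the fold limit. In SUM149PT the siASAP1 libraries read 3187, 12480 and 4005 and the siCtrl libraries 4714, 882 and 3653, with 882 in the library labelled siCtrl replicate 2; the log2 FC was 1.13 with that library and 0.39 without it, and neither was called. In BT549 the values of 1373, 4330 and 2536 overlapped the controls at 2909, 1396 and 1497.

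GCLC and GCLM are the catalytic and modifier subunits of glutamate-cysteine ligase, which makes the first step of glutathione synthesis. In SUM149PT, GCLC read 389, 281 and 403 with siASAP1 and 106, 629 and 60.7 with siCtrl. The GCLM probe GCLM_2615 read 6995, 2063 and 7837 against 1108, 9380 and 1148. In both, the library labelled siCtrl replicate 2 was above every siASAP1 library and the other two control libraries were below them all. With all 6 libraries neither was called. Without that library the log2 FC was 2.12 for GCLC and 2.10 for this GCLM probe, and 4 members of 10 were called instead of 1, beside 23.4% of all probes instead of 9.56%. The other GCLM probe, GCLM_25908, read 3408, 2669 and 4523 against 2028, 4423 and 2021 and was not called either way.

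In BT549 the probe GCLM_25908 read 2042, 1073 and 1099 with siASAP1, above 1062, 1061 and 956 with siCtrl, and the other probe read 3277, 968 and 949 against 1323, 1329 and 1334. The probes thus gave different orders of the same libraries. GCLC read 347, 82.1 and 23.7 in BT549 with siASAP1, a range wider than that of the controls at 203, 83.6 and 122. Its log2 FC was −0.52 with all libraries and 0.40 without siASAP1 replicate 3. In Hs578T neither subunit was called.

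NQO1, the NADPH quinone reductase often read as an indicator of NRF2 activity, showed no difference past a test of siASAP1 at either probe. NQO1_26473 read 30010, 21480 and 17270 in BT549 with siASAP1 against 23760, 16840 and 20720, and 10130, 7597 and 9177 in SUM149PT against 7264, 12420 and 7212. The 95% interval of the log2 FC at this probe was −0.55 to 0.83 in BT549, −0.89 to 0.57 in Hs578T and −0.81 to 0.88 in SUM149PT. Without the library labelled siCtrl replicate 2 the interval in SUM149PT was −0.37 to 0.97. Changes of 2-fold lay outside these intervals at NQO1_26473, whereas for NQO1_4668 the intervals reached past 1 or −1 in BT549 and SUM149PT.

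NFE2L2 itself read 1352, 829 and 974 in SUM149PT with siASAP1 and 606, 686 and 425 with siCtrl. The groups did not overlap, and the mean was 184% of the control (log2 FC 0.87, SE 0.40, adjusted p = 0.505, limma). Without the library labelled siCtrl replicate 2 the log2 FC was 1.02 and the probe was called. In BT549 NFE2L2 read 824, 451 and 420 against 1031, 463 and 657, and in Hs578T 1957, 3121 and 1313 against 1901, 2795 and 1014, with overlap in both.

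Of the 11 probes, siASAP1 libraries lay wholly above siCtrl for 2 in BT549 (GCLM_25908 and TXNRD1), 2 in Hs578T (SLC7A11 and FTH1) and 2 in SUM149PT (NFE2L2 and SLC7A11), and wholly below for HMOX1 in BT549. Among all probes tested, 13.9% did not overlap in BT549 (7.35% above, 6.51% below), 12.1% in Hs578T (6.31% above, 5.78% below) and 17.3% in SUM149PT (8.87% above, 8.41% below). With 3 libraries against 3 the smallest two-sided p of an exact permutation test is 0.1, and each of these 7 cases gave that p. Over the 3 lines together no member passed an adjusted p of 0.05 in limma (0 of 11, beside 1.74% of all 10475 probes). An unadjusted p under 0.05 was found for 2 of the 11, beside 15.8% of all probes. These were TXNRD1 (log2 FC 0.78, SE 0.31, adjusted p = 0.204, limma) and FTH1 (log2 FC 0.80, SE 0.33, adjusted p = 0.234, limma). Without the library labelled SUM149PT siCtrl replicate 2 these were 0.56 for TXNRD1 and 0.57 for FTH1, and again 0 of 11 passed. The median log2 FC of the members was 0.14 in BT549, 0.25 in Hs578T, 0.72 in SUM149PT and 0.43 over the lines, beside medians of −0.002, 0.01, 0.087 and 0.023 over all probes. Without the library labelled siCtrl replicate 2 the members' median in SUM149PT was 0.58, beside 0.11 over all probes. The test of a difference between the lines passed for 0 of 11 member probes and for 0.00955% of all probes. In it 652 probes (6.22%) had an unadjusted p under 0.05.

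Replicates of a group differed along 1 shared axis that took 42.5% of the variance between replicates over the 10464 other probes. This axis was computed from deviations from group means, without the members. Across the 18 libraries, 9 of the 11 member probes had a Pearson r above 0.5 or under −0.5 with it, beside 56.4% of the other probes. GCLM (0.96 and 0.80), GCLC (0.77), NQO1 (0.72 and 0.68) and NFE2L2 (0.54) went up along the axis. TXNRD1 (−0.84), FTH1 (−0.83) and SRXN1 (−0.66) went down, while HMOX1 was at −0.008 and SLC7A11 at 0.33. The members thus moved in opposite directions between replicates, and the part of this axis in the siASAP1 differences was not tested.

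**Figure D3:**
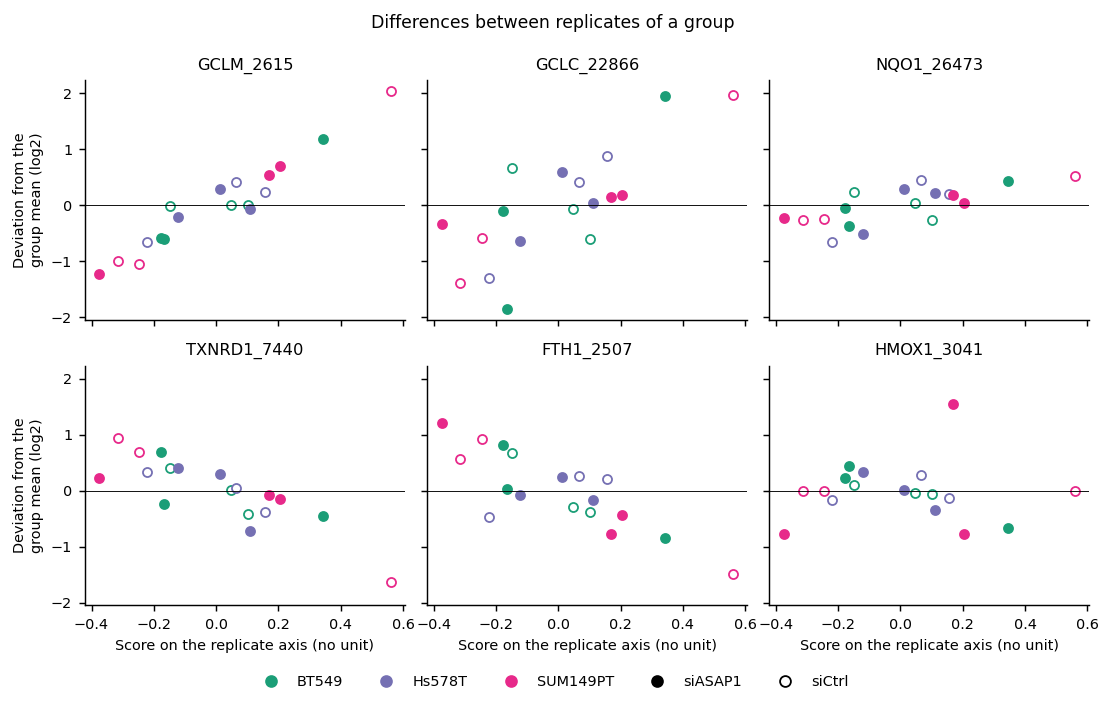
Deviation of each library from its group mean (vertical axis, log2) against its score on the axis shared by replicates (horizontal axis, no unit) for 6 member probes, with filled points for siASAP1, open points for siCtrl and one colour for each line. GCLM, GCLC and NQO1 rise along the axis, TXNRD1 and FTH1 fall, HMOX1 shows no slope, and the open point of SUM149PT farthest right is the library labelled siCtrl replicate 2.

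Between the control groups, HMOX1 included, 2 of the 11 probes were called between SUM149PT and BT549, beside 18.2% of all probes, and 3 between SUM149PT and Hs578T, beside 20.2%. NFE2L2 read 1901, 2795 and 1014 in Hs578T, each above all 3 SUM149PT libraries, and was lower in SUM149PT (log2 FC −1.64, SE 0.45, adjusted p = 0.0274, limma). The log2 FC was −1.79 and still called without the library labelled SUM149PT siCtrl replicate 2. The call was lost without Hs578T replicate 1 (log2 FC −1.58) or 2 (log2 FC −1.30) or SUM149PT replicate 1 (log2 FC −1.70) or 3 (log2 FC −1.44). BT549, at 1031, 463 and 657, overlapped SUM149PT and reached into the range of Hs578T.

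NQO1_26473 was lower in SUM149PT than in Hs578T (28570, 24190 and 13400 in Hs578T; log2 FC −1.28, adjusted p = 0.0466, limma). The call was lost under both other scalings and without SUM149PT replicate 1 or 3, Hs578T replicate 1 or 2, or any BT549 replicate. Log2 FC values ran from −1.60 to −1.05 when 1 library was left out. The members called between these lines also fell from 3 to 2 with a pseudocount of 0.1, no filter on low counts or probes summed. The probe GCLM_25908 was higher in SUM149PT than in BT549 (log2 FC 1.36, SE 0.35, adjusted p = 0.0214, limma). This gain was 0.98 and under the fold limit without the library labelled siCtrl replicate 2, and the call was also lost without BT549 replicate 2 or 3 (log2 FC 1.38 and 1.31). Without that SUM149PT library, 5 member probes were called against BT549, beside 33.2% of all probes, and 5 against Hs578T, beside 30.7%. The mean of NQO1 was lowest in SUM149PT at both probes, and BT549 and Hs578T overlapped at both.

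The genes most like each member over the 18 libraries, after the mean of each line was subtracted, are given as a description; the libraries share the replicate axis. For NFE2L2 they were CTSL and UBLCP1 (both r = 0.91), for HMOX1 TRO (0.85) and MTAP (0.82), for NQO1 ARF4 (0.88) and MRPL13 (0.87), and for GCLC IFRD1 (0.95) and ELF1 (0.94). For GCLM they were PTPN12 (0.97) and MARCH7 (0.96), for TXNRD1 TNFRSF10B (0.92) and PRRC2C (0.91), for SRXN1 TFE3 (0.86) and TBC1D2 (0.82), for SLC7A11 FBXO9 (0.86) and AP1S3 (0.83), and for FTH1 SH3BGRL3 (0.96) and RPP21 (0.94). None of the 18 is another member.

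The list of genes that control or partner NRF2 had 9 tested probes of 8 genes, of which 4 were called higher in BT549 (3.28% of all probes were), 1 in Hs578T (1.34%) and 2 in SUM149PT (5.27%) by the unadjusted thresholds within a line, and none was called lower. The 4 in BT549 were of 3 genes, with both probes of MAFF, another small MAF, beside MAFG and SQSTM1, and each lost its call when certain single libraries were left out. MAFG, the small MAF partner, read 130, 208 and 652 with siASAP1 against 56.1, 128 and 67.3 in BT549, and 818, 1091 and 795 against 392, 179 and 547 in SUM149PT. It did not overlap in either line and had an r of −0.66 with the replicate axis. It was higher over the 3 lines (log2 FC 1.29, SE 0.32, adjusted p = 0.042, limma). Of the 9 probes it was the 1 to pass there, beside 1.74% of all probes. Leaving out single libraries gave 1.07 to 1.43 and took the adjusted p past 0.05 for most libraries. In SUM149PT the log2 FC was 1.40, or 0.94 and under the fold limit without the library labelled siCtrl replicate 2.

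SQSTM1, the autophagy receptor p62 that binds KEAP1 and is itself an NRF2 target, read 189, 774 and 742 in BT549 with siASAP1 against 190, 136 and 142, and 576, 394 and 962 in Hs578T against 227, 215 and 444. Its log2 FC was 1.62 in BT549 (SE 0.55) and 1.11 in Hs578T (SE 0.41), called in both lines by unadjusted p, and 1.47 over the lines (adjusted p = 0.128, limma). The groups overlapped in both lines. In SUM149PT the mean of SQSTM1 was 396 with siASAP1 against 174 with siCtrl, and it was not called there. SQSTM1 had an r of −0.98 with the replicate axis, and its calls were lost without siASAP1 replicate 2 (log2 FC 1.28) or 3 (log2 FC 1.31) in BT549, and in Hs578T without siASAP1 replicate 1 (log2 FC 1.14) or 3 (log2 FC 0.77) or siCtrl replicate 1 (log2 FC 0.96) or 2 (log2 FC 0.92). KEAP1 (adjusted p = 0.446 over the lines, limma) and BACH1, a repressor at the same element (adjusted p = 0.80, limma), were not called in any line.

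**Figure D4:**
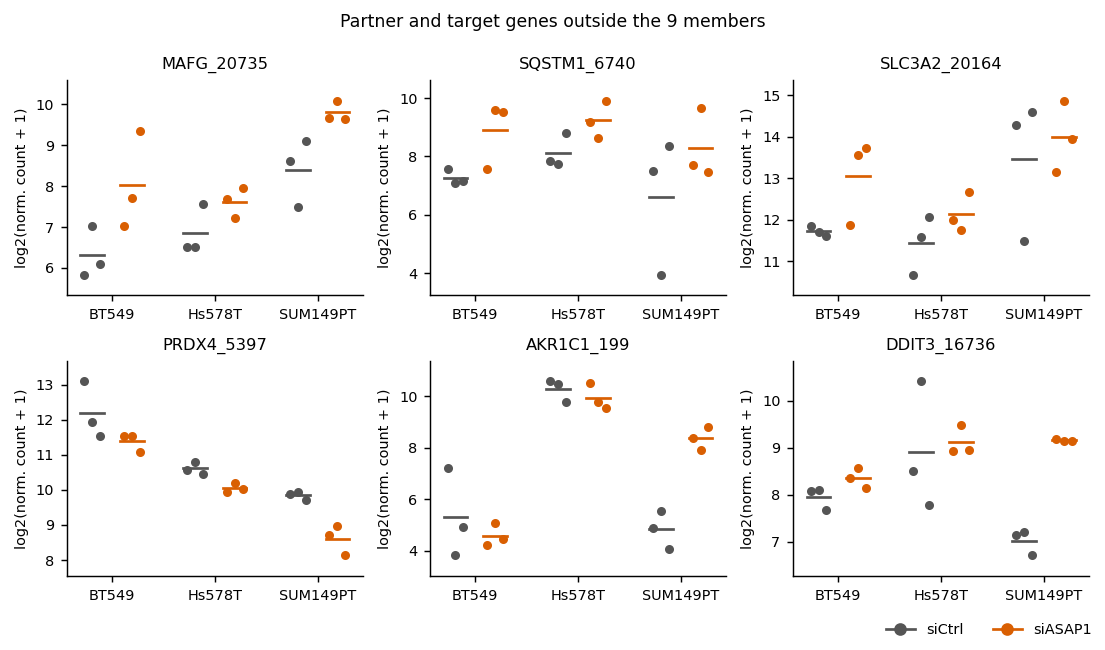
Log2 of the normalized count plus 1 (vertical axis, scales differ) for 6 partner and target genes outside the 9 members, with points for libraries and bars for group means, siCtrl in grey and siASAP1 in orange. MAFG is higher and PRDX4 lower with siASAP1 on average in each line, and AKR1C1 and DDIT3, genes of the detoxification and ATF4 target lists chosen after their values were seen, are higher with siASAP1 in SUM149PT without overlap.

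In glutathione synthesis and use, 3 of 11 probes were called higher and 1 lower in BT549, beside 3.28% and 3.69% of all probes. None was called in Hs578T or SUM149PT, beside 2.78% and 9.56% of all probes. SLC3A2, the heavy chain that pairs with SLC7A11 in the carrier, read 3784, 12110 and 13540 in BT549 with siASAP1 against 3715, 3353 and 3130 (log2 FC 1.33, SE 0.46, adjusted p = 0.581, limma). Its call was lost without siASAP1 replicate 2 (log2 FC 1.08) or 3 (log2 FC 1.00), and its r with the replicate axis was −0.92. SLC7A11 itself was not called in BT549.

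Among thioredoxin, peroxiredoxin and superoxide genes, 1 of 16 probes was called lower in BT549, 3 higher in Hs578T and 1 lower in SUM149PT. Over all probes these shares were 3.69%, 1.34% and 4.29%. PRDX4, the peroxiredoxin of the endoplasmic reticulum, was the 1 probe of 16 to pass over the lines, beside 1.74% of all probes. It was lower (log2 FC −0.86, SE 0.20, adjusted p = 0.0307, limma). It read 980, 1172 and 1048 in Hs578T with siASAP1 against 1516, 1778 and 1411, and 419, 504 and 280 in SUM149PT against 934, 979 and 844, without overlap in either. In BT549 it read 2948, 2981 and 2166 against 8711, 3879 and 2985, again without overlap. PRDX4 had an r of −0.13 with the replicate axis, and its log2 FC over the lines was −0.96 to −0.74 with single libraries left out. It no longer passed without SUM149PT siASAP1 replicate 1 or 3, SUM149PT siCtrl replicate 1 or 3, BT549 siASAP1 replicate 3, BT549 siCtrl replicate 1 or Hs578T siASAP1 replicate 1 or 3.

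None of 7 or 8 probes of NADPH supply, nor of 7 or 8 of heme and iron, was called in any line. Over all probes 6.97% were called in BT549, 2.78% in Hs578T and 9.56% in SUM149PT. FTL, the ferritin light chain that assembles with FTH1, read 4526, 3048 and 2879 in Hs578T with siASAP1 against 1860, 2163 and 3205, with overlap. Under siCtrl, FTL was higher in Hs578T than in BT549 (log2 FC 2.28, SE 0.39, adjusted p = 0.00282, limma).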

How the data were processed

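TempO-Seq was read in 18 libraries, 3 for each of 6 groups of cell line and siRNA, assigned from the labels. The authors deposited log2 values of counts normalized with DESeq2 size factors plus 1; the submitters' notes also name bcl2fastq and Bowtie, and the genome build is not given in the sources used here. Returned to the linear scale, all values were whole reads (within 0.01 of a read), so that reads could be recovered. The fits took probes whose normalized counts averaged 10 or more in the libraries compared and used limma 3.58.1 (R 4.3.3; limma-trend on log2 values with a pseudocount of 1), with Benjamini-Hochberg adjustment over all probes fitted. Each line was fitted alone, the 3 lines together with a mean per line, and the 9 siCtrl libraries by line. Single members were also compared by two-sided exact permutation tests. The fits were tested on simulated data with independent libraries. The simulation had no axis shared by replicates and no library that stands apart, so it does not cover the spread of the real libraries. Alternatives were other scalings, pseudocounts and filters, summed probes, voom weights, a replicate block, 1 fit of all libraries, the replicate axis as a covariate and each library left out.

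The members and lists were chosen with earlier results of these data known. Named are all member probes, ASAP1, SQSTM1, KEAP1, BACH1, SLC3A2 and FTL, up to 2 list probes in each direction passing over the 3 lines, and the 2 genes most correlated with each member; other genes were chosen after their values were seen. Sequences are from RefSeq. Intervals of log2 FC rest on the spread between libraries; the floor of 3 reads covers counting error only, since reads carry no molecular identifiers.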

Additional observations from a re-analysis of the deposited data

How the results depend on the processing

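The count of member probes called in BT549 was 2, and 1 with quantile normalization, with a replicate block or with all 18 libraries in 1 fit, and 1 to 3 with single libraries left out, while all probes called went from 674 to between 325 and 2169 over these settings. In Hs578T it was 1, then 0 in the single fit of all libraries and 0 to 2 with libraries left out (all probes 264, then 142 to 634). In SUM149PT it was 1, then 2 with scaling by library totals, 0 with the replicate block, 0 in the single fit and 0 to 4 with libraries left out (all probes 963, then 351 to 2325, the highest without the library labelled siCtrl replicate 2). Over the 3 lines it was 0, and 2 with the replicate axis as a covariate (all probes 182, then 869). That axis is made of deviations from group means, so it leaves every fold change as it was and lowers the residual spread by construction, and nothing rests on this fit. Between control groups, the count was 1 for Hs578T against BT549 (1 to 3 with libraries left out; all probes 1419, then 906 to 2152), 2 for SUM149PT against BT549 (1 with probes summed, 1 to 5; all probes 1862, then 1270 to 3351) and 3 for SUM149PT against Hs578T (1 to 5; all probes 2070, then 1362 to 3103). For SUM149PT against BT549 the count was 3 under both other scalings and with voom weights. For SUM149PT against Hs578T it was 2 under both other scalings, a pseudocount of 0.1, no filter on low counts and probes summed. Sign changes were counted for member probes with an absolute log2 FC of at least 0.5 or an unadjusted p under 0.05 (limma). With 1 library left out, the log2 FC changed sign in 4 cases. GCLC in BT549 went from −0.52 to 0.40 without siASAP1 replicate 3 (−1.50 to 0.40 over all libraries left out). Without the library labelled SUM149PT siCtrl replicate 2, TXNRD1 in SUM149PT went from 0.57 to −0.25 (−0.25 to 1.04), GCLM_2615 in SUM149PT against BT549 from 0.78 to −0.24 (−0.24 to 1.30), and TXNRD1 in SUM149PT against Hs578T from −0.78 to 0.040 (−1.25 to 0.040). Smaller differences were not counted, and some of them changed sign too. Without that library, FTH1 in SUM149PT against Hs578T went from −0.31 to 0.44 and GCLC in SUM149PT against BT549 from 0.32 to −0.66. The cause was not tested. Within a line, the deviations of libraries that carry one number under both siRNAs correlated at −0.39 to 0.14 in BT549, at 0.0998 to 0.42 in Hs578T, positive in all 3 pairs, and at −0.66 to −0.33 in SUM149PT. The labels do not say whether libraries of 1 number were made together. Not every pair was over 0.1, so the numbers were not taken as pairs. The replicate block was tried only as an alternative (all probes 591, 435 and 351 in the 3 lines). In Hs578T, where the block raised the count from 264 and the lowest pair lay just under 0.1, whether libraries are paired was not tested. With a minimum mean count of 50, SRXN1 gave no value. With 3 libraries a group, an adjusted p under 0.05 was reached by no probe in a single line.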

Other observations

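Of the detoxification list, 1 probe of 10 was called lower in BT549, beside 3.69% of all probes, and 2 of 15 higher in Hs578T, beside 1.34%. In SUM149PT 3 of 15 were called higher, beside 5.27%. In SUM149PT these were aldo-keto reductases, chosen after their values were seen, which reduce carbonyls and steroids. AKR1C1 read 333, 244 and 449 with siASAP1 against 28.6, 45.5 and 16.0 with siCtrl, without overlap (log2 FC 3.54, SE 0.56, adjusted p = 0.217, limma). The probe AKR1C3_26820 read 38.4, 53.8 and 121 against 11.4, 4.55 and 9.59 (log2 FC 2.83, SE 0.79, adjusted p = 0.356, limma; 2.48 without the library labelled siCtrl replicate 2), while the other probe of AKR1C3 was not called. AKR1C2 had 17, 29 and 22 reads with siASAP1 and 0, 0 and 1 with siCtrl. These genes are near-identical paralogs, and how far one probe reads another gene was not tested. AKR1C1 was called under all 15 alternatives in SUM149PT, with log2 FC values of 3.16 to 3.89 when single libraries were left out (3.89 without the library labelled siCtrl replicate 2), and its r with the replicate axis was 0.15. It did not rise in Hs578T, which read 1456, 877 and 739 against 1528, 1426 and 867. In BT549 it averaged 23.9 with siASAP1 against 62.9 with siCtrl. The test of a difference between the lines gave an adjusted p of 0.144 (limma).

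Among ATF4 targets, another stress program that includes SLC7A11, 1 probe of 6 was called higher in SUM149PT, beside 5.27% of all probes. In Hs578T 1 of 8 was called lower, beside 1.44%, and in BT549 1 of 7, beside 3.69%. DDIT3, the stress factor CHOP, chosen after its values were seen, read 585, 563 and 568 in SUM149PT with siASAP1 against 140, 148 and 104, without overlap (log2 FC 2.14, SE 0.39, adjusted p = 0.275, limma). Its log2 FC was 1.98 to 2.23 with single libraries left out (2.23 without the same library). The other probe, DDIT3_1800, averaged 1.71 with siASAP1 and 5.27 with siCtrl in SUM149PT, under the filter on low values, and was not tested there. In BT549 DDIT3 read 326, 381 and 282 against 270, 272 and 203, and in Hs578T 485, 715 and 493 against 364, 1364 and 221. Called lower were ASNS in BT549 (mean 4.67 with siASAP1 against 28.7 with siCtrl) and PSAT1 in Hs578T (45.4 against 108). Both calls were lost without certain single libraries. The mean of each of these genes was lower with siASAP1 in all 3 lines.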
